A study of Mus musculus with 18 samples.

Results

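The Tbx21, Hoxb and Stat3-Stat5 domain is a 9-Mb stretch of mouse chromosome 11, chr11:94000001-103000000 in mm8, that lies 41 to 50 Mb beyond the Il4 gene on the same chromosome. Its contacts with Il4 were read on 8 tiling arrays by 4C, in which chromatin is crosslinked, cut with HindIII and ligated, and whatever DNA was joined to a chosen gene, the bait, is amplified and hybridised against cut genomic DNA. The members were all tiled positions whose probe starts in the stretch, 1293 of the 384942 on an array and of the 18333 on chromosome 11. No probe was picked by its own signal, but the stretch was chosen with earlier results of these data known. They filled 18 of the 5021 bins of 500 kb that were tested. The values are log2 ratios of 4C DNA over genomic DNA, set to 0 at the median of the probes off chromosome 11, so a positive value is more contact with Il4 than a typical site on another chromosome has.

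The Il4 bait was measured in 4 groups of 2 arrays, all from primary mouse CD4+ T cells. The groups were naive cells, cells of the Th1 type, cells of the Th2 type and Th2 cells lacking Stat6 (Stat6 KO). The submitters call the arrays biological replicates, except for a pool that they do not identify. Strain, age, sex, the knockout allele and the culture of the Th1 and Th2 cells are not given in the sources used here. A 4C array reads contact and not expression, so neither cell identity nor the loss of Stat6 could be checked against marker genes.

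Il4 encodes interleukin 4, which signals through STAT6 and is made by Th2 cells. Tbx21 encodes T-bet, the factor that drives Th1 cells and opposes the Th2 programme. Stat5a, Stat5b and Stat3 encode signal transducers that enter the nucleus when cytokine receptors activate them: STAT5 acts downstream of interleukin 2 and helps Th2 cells open the Il4 locus, and STAT3 acts downstream of interleukin 6. Ccr7 encodes the chemokine receptor that keeps naive T cells in lymph nodes, and the Hoxb genes encode body-patterning factors that are mostly silent in mature T cells. Chromosomes fold so that gene-rich stretches tend to contact other gene-rich stretches of the same chromosome, and contact falls with distance along the chromosome.

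The order of the genes was taken from a RefSeq table of GRCm38.p6. That build is not the one of the arrays, so no gene was placed in a bin. In that order the Hoxb cluster (10 genes, from Hoxb13 to Hoxb1) comes first, followed by Nfe2l1, Tbx21, Socs7 for an inhibitor of cytokine signalling, Med1, Erbb2, Ikzf3 for the lymphoid factor Aiolos, Csf3, the retinoic acid receptor gene Rara, Top2a, Ccr7, the type I keratin genes with their associated proteins, and finally Stat5b, Stat5a and Stat3. From Hoxb13 to Stat3 there are 258 genes, 178 of them protein-coding, and 50 of these are keratin or keratin-associated genes, which serve skin and hair. Brca1, Etv4 and Grn follow Stat3, and Tob1 and Ngfr come before Hoxb13. In the mm8 bands the domain covers part of 11qD up to 102273660 and the start of 11qE1 after it.

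Promoters of the domain are shown for Tbx21, for the keratin gene Krt24 and for Stat5a and Stat3, which follow one another in this order, together with Rara. Each is the 250 bases before a RefSeq start in GRCm38.p6, 5′ to 3′. Capitals mark a match to a STAT motif, TTCNNNGAA, which reads the same on both strands. Only this spacing was searched, so STAT sites with another spacing, of STAT6 or others, are neither marked nor counted. For a gene with several starts, a promoter with the motif was shown where there was any.
Tbx21 (chr11:97115332-97115581, - strand): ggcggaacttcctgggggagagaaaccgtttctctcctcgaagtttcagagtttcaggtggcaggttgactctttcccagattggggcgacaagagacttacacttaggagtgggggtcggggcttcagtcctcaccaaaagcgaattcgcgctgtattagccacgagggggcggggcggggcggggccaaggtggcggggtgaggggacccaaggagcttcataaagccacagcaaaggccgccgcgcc
Rara (chr11:98939461-98939710, + strand): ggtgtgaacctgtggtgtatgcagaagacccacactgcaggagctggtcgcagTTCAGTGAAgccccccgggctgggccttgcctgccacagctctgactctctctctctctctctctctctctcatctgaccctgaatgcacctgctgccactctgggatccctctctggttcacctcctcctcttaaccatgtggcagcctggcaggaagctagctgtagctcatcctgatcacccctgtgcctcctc
Krt24 (chr11:99285263-99285512, - strand): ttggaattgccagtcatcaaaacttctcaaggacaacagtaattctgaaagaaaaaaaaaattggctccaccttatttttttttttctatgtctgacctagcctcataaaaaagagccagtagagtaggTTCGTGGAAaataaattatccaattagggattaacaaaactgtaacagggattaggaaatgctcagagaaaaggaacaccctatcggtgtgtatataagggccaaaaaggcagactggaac
Stat5a (chr11:100859406-100859655, + strand): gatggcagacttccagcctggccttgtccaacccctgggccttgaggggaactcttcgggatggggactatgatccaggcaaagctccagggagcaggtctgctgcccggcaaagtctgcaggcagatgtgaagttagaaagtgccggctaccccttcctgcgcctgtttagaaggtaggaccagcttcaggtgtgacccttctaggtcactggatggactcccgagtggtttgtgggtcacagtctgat
Stat3 (chr11:100939541-100939790, - strand): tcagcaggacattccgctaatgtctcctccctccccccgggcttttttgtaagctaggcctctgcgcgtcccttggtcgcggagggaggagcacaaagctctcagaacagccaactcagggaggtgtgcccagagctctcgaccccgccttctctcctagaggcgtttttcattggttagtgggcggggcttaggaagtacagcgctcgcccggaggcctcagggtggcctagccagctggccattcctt
Of these 5 only Rara and Krt24 held the motif, from 197 to 189 bases and from 121 to 113 bases before the start. Between Hoxb13 and Stat3, 15 of 178 promoters of 150 genes held it (8.43%), against 2306 of all 32851 promoters of the same length (7.02%), and 6 of the 15 belong to keratin or keratin-associated genes, which have 42 of the 178 promoters. A match is a string of letters and no evidence that STAT proteins bind there.

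Several properties of the arrays touch every value. In the naive, Th1 and Stat6 KO pairs the sorted values of the arrays of a group were equal within 0.011 for more than 99.8% of probes, whereas in the Th2 pair 10.8% were. Among the Ifng-bait pairs the share was 42.8% in Th1 and at least 99.5% in each other pair. Th2 replicate 2 was less like its own replicate (r = 0.22 over probes off chromosomes 10 and 11) than like Ifng-bait Th1 replicate 2 (0.41), and inside the domain the values of r were 0.18 and 0.21. The arrays that resemble each other are thus in the pairs with the low shares. Whether each is the sample its title names could not be settled. Weak likeness of replicates was not limited to the Th2 pair. Over probes off chromosome 11, r was 0.15 for the naive replicates, 0.14 for the knockout, 0.24 for Th1 and 0.22 for Th2. Naive replicate 2 had 0.32 with Th1 replicate 2, more than with its own replicate. Values without Th2 replicate 2 are given below. At 1 to 2 Mb from the bait bin, Th2 arrays also had the lowest mean log2 ratio (0.86 ± 0.13), against 1.85 ± 0.09 in naive, 1.82 ± 0.49 in Th1 and 1.44 ± 0.02 in Stat6 KO cells (SD, n = 2 each). That near-bait signal fell from naive to Th2 cells together with the domain, and its part in the results was not tested. Naive replicate 2 and Th2 replicate 1 came from one series of array serial numbers, naive replicate 1, both Th1 arrays and Th2 replicate 2 from another and both Stat6 KO arrays from yet another, so series and genotype cannot be told apart for the knockout.

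The domain was among the stretches of chromosome 11 with most Il4 contact. With the chromosome split into 15 windows of up to 9 Mb, the domain ranked second in 7 of the 8 arrays, behind the window that holds the bait, and had rank 4 in Th1 replicate 2. Its mean log2 ratio over the 8 arrays was 0.66 ± 0.30, and the windows from 67000001 and from 76000001, nearer to the bait, had 0.59 ± 0.31 and 0.58 ± 0.33 (SD, n = 8 each). The window before it stood 0.31 ± 0.09 lower and the window after it 0.24 ± 0.12 lower, and the domain was above each of them in 8 of 8 arrays. It was also above the rest of chromosome 11 beyond 10 Mb from the bait in 8 of 8 arrays, by 0.32 ± 0.11 on average. Each of these 3 differences had p = 0.0078 in an exact two-sided sign permutation test over arrays (adjusted p = 0.0078 over the 3), which is the smallest p that 8 arrays can give. The stretch was chosen with earlier results of these data known, and the comparison with neighbours after the values were seen. These p-values are therefore descriptive.

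**Figure D1:**
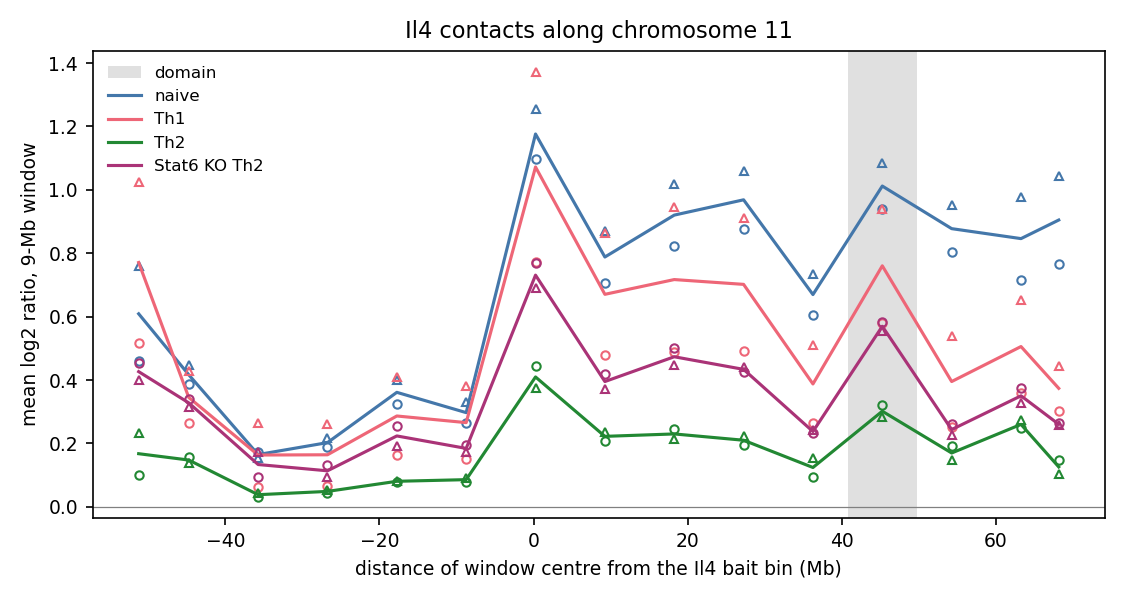
Mean log2 ratio of the Il4 bait in each window of up to 9 Mb of chromosome 11 against the distance of the window's centre from the bait bin in Mb; lines are group means of 2 arrays, circles are replicate 1 and triangles replicate 2. The shaded domain stands above both neighbouring windows in all 4 groups, with means from 1.01 in naive to 0.30 in Th2 cells.

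On the bait side the rise into the last bin before the domain was larger in naive cells than in Th2 and knockout cells. The step into the last bin before the domain was 0.79 and 0.80 in the naive arrays, 0.24 and 0.59 in Th1, 0.090 and 0.015 in Th2 and 0.15 and 0.31 in Stat6 KO arrays. In the limma fit over all 4966 steps between adjacent bins it was lower in Th2 than in naive cells (change -0.74, SE 0.10, adjusted p = 0.00132) and in the knockout (-0.57, adjusted p = 0.0107), while the Th1 change of -0.38 did not pass (adjusted p = 0.239). Steps called were 0.624% of all for Th2 and 0.564% for the knockout, and 12.6% and 11.7% of the 231 on chromosome 11. In naive cells the last bin before the domain, from 93500001 to 94000000, had a mean of 1.08 and the first bin inside it 1.16. In Th1 cells the same bins had 0.51 and 0.70, in Th2 cells 0.085 and 0.37, and in Stat6 KO cells 0.28 and 0.69. The step into the first bin inside did not pass in any of the 6 comparisons (0.21 for Th2 against naive, adjusted p = 0.559, and 0.33 for knockout against naive, 0.0590). Both edge steps were singled out after the values were seen, and neither was checked with arrays left out or with other scalings. At the other end the last bin inside had 1.11 in naive and 0.34 in Th2 cells, and the first bin outside, from 103000001 to 103500000, had 0.88 and 0.22. Off chromosome 11 no window of an array reached the domain's level, apart from Th2 replicate 2, where the highest such window had 0.29 and the domain 0.28.

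Single probes showed the same order. In naive cells 41.8% and 51.0% of the domain's probes were among the highest 5% of all probes of their array. The shares were 19.9% and 31.9% in Th1, 23.4% and 25.4% in Stat6 KO and 16.2% and 11% in Th2 cells. On the rest of chromosome 11 outside the bait region they were lower in each of the 8 arrays, from 33.3% in naive replicate 2 to 8.08% in Th2 replicate 2.

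The mean level of the whole domain was highest in naive cells, followed by Th1, Stat6 KO and Th2 cells. In the limma fit with all arrays only the difference between Th2 and naive cells passed (adjusted p = 0.0114 over 309 windows). That call was lost under several of the alternatives given below. In naive cells the arrays had 0.94 and 1.08, with a mean of 1.01 ± 0.10. In Th1 cells they had 0.58 and 0.94, a mean of 0.76 ± 0.25. In Stat6 KO cells they had 0.58 and 0.56, a mean of 0.57 ± 0.02. In Th2 cells they had 0.32 and 0.28, a mean of 0.30 ± 0.03 (SD, n = 2 each). Both naive arrays were above both Th2 and both Stat6 KO arrays, and both Stat6 KO arrays were above both Th2 arrays. Th1 replicate 1 lay at the level of the knockout and Th1 replicate 2 at the level of naive replicate 1, so Th1 overlapped with both of its neighbours in this order.

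**Figure D2:**
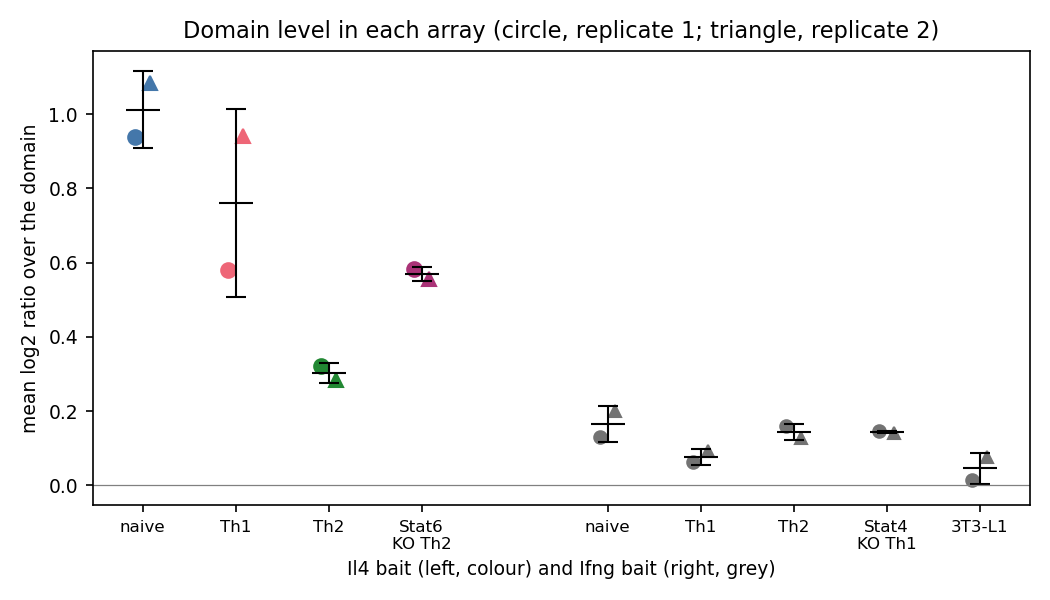
Mean log2 ratio over the 1293 probes of the domain in each array, for the 4 groups of the Il4 bait (left) and the 5 groups of the Ifng bait on chromosome 10 (right); bars are the mean and SD of 2 arrays. Il4-bait values run from 0.28 in Th2 replicate 2 to 1.08 in naive replicate 2, and Ifng-bait values stay between 0.015 and 0.20.

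The comparison of Th2 with naive cells asked how contact with the domain differs once Il4 is in use. Contact with the domain was lower in Th2 cells in most of its bins. The domain fell by 0.71 (SE 0.10, 95% interval -0.95 to -0.47, limma adjusted p = 0.0114 over 309 windows), to 0.30 from 1.01. Windows called lower in Th2 cells made up 2.91% of all windows and 60% of the 15 on chromosome 11. In 500-kb bins 15 of the 18 bins of the domain passed, all lower in Th2 cells, and the median change was -0.73. Of all bins 2.23% were called lower, and among the 215 other bins of chromosome 11 44.7% were, with a median change of -0.45. Both Th2 arrays were below both naive arrays in 18 of 18 bins of the domain and in 83.3% of the other chromosome 11 bins.

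The largest change was in the bin from 99000001 to 99500000. There the naive arrays had 1.19 and 1.27 and the Th2 arrays 0.080 and 0.18, a change of -1.10 (SE 0.17, limma adjusted p = 0.00542). The Th2 arrays were thus near the level of other chromosomes in a bin where naive cells were high. The bin from 96000001 to 96500000, the highest of the domain in naive cells (1.34 and 1.35), had 0.41 and 0.23 in Th2 cells, a change of -1.03 (adjusted p = 0.00132). In the bin from 94500001 to 95000000 the naive arrays had 1.28 and 1.39 and the Th2 arrays 0.37 and 0.30, a change of -1.0 (adjusted p = 0.000224). The 3 bins that did not pass were those from 98500001, from 100000001 and from 100500001, with changes of -0.26, -0.68 and -0.33.

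The call for the whole domain was lost when any of 3 of the 4 arrays was left out. Without naive replicate 1 it was kept (-0.78). Without Th2 replicate 2 the domain changed by -0.69, without Th2 replicate 1 by -0.73 and without naive replicate 2 by -0.64. Fewer of the domain's bins passed in each of these fits than with all arrays. The change was -0.76 in the serial series with naive replicate 2 and Th2 replicate 1, and -0.66 in the series with the other arrays of both groups, and with the series as a block the call was lost (-0.71, adjusted p = 0.229, 9 bins). After each array was divided by its own spread off chromosome 11 it was -0.68 (adjusted p = 0.182) with 3 bins.

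The domain stood less far above the rest of its own chromosome in Th2 than in naive cells, but not less far above the window after it. With every array centred on the median of the other probes of chromosome 11, the domain changed by -0.53 (SE 0.09, limma adjusted p = 0.000694 over the 15 windows of chromosome 11). In that fit 15 of 18 bins were called lower, as were 39.1% of the other chromosome 11 bins. The centring moved Th2 against naive cells by only 0.18. The mean of the rest beyond 10 Mb from the bait was 0.57 in naive and 0.13 in Th2 cells. Part of the chromosome-wide fall therefore stays in the -0.53. The naive domain stood 0.44 ± 0.02 above the rest of chromosome 11 beyond 10 Mb and the Th2 domain 0.17 ± 0.03 (SD, n = 2 each). Above the window before it the domain stood 0.34 in naive and 0.18 in Th2 cells, and above the window after it 0.13 in both. Other high windows of the chromosome fell as well. From naive to Th2 cells the window from 76000001 went from 0.97 to 0.21 and that from 103000001 from 0.88 to 0.17. The fall was therefore not particular to the domain. The near-bait signal was lower in Th2 arrays too, as given above.

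Th1 cells, in which Tbx21 is active, were set against naive cells. The mean level of the domain was 0.25 lower in Th1 cells (change -0.25, SE 0.10), and the difference did not pass (limma adjusted p = 0.399). None of the 18 bins passed, with 0.119% of all bins and 2.79% of the other chromosome 11 bins called lower. Both Th1 arrays were below both naive arrays in 8 of the 18 bins and in 31.6% of the other chromosome 11 bins. Of the windows 0% were called lower. The bin with the smallest p, from 101500001 to 102000000, had 0.63 and 0.72 in Th1 against 1.02 and 1.08 in naive cells (change -0.37, adjusted p = 0.0525). The only bin with a higher mean in Th1 cells, from 97500001 to 98000000, differed by 0.015 (adjusted p = 0.977), and its sign turned with other scalings. This comparison depended on which Th1 array was used: without Th1 replicate 2 the domain changed by -0.43, and without Th1 replicate 1 by -0.072.

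Between the effector lineages the domain was lower in Th2 than in Th1 cells in all 4 pairs of arrays, and the whole-domain test did not pass. The change was -0.46 (SE 0.10, limma adjusted p = 0.236, the second smallest p of 309 windows). In bins 2 of 18 passed, both lower in Th2 cells, against 0.219% of all bins and 4.19% of the other chromosome 11 bins. Both Th2 arrays were below both Th1 arrays in 17 of the 18 bins and in 67.9% of the other chromosome 11 bins. The bin from 94500001 to 95000000 had 0.90 and 1.14 in Th1 and 0.37 and 0.30 in Th2 cells (change -0.69, SE 0.09, adjusted p = 0.00577). The bin from 101500001 to 102000000 had 0.63 and 0.72 in Th1 and 0.081 and 0.17 in Th2 cells (change -0.55, SE 0.07, adjusted p = 0.00461). Without Th1 replicate 1 the domain changed by -0.64, without Th1 replicate 2 by -0.28, without Th2 replicate 1 by -0.48 and without Th2 replicate 2 by -0.44. Centred on the rest of chromosome 11 the change was -0.40 (adjusted p = 0.00582 over 15 windows), with 9 bins called lower against 19.1% of the other chromosome 11 bins. It was -0.14 with the median per window, -0.27 with scaling by spread and -0.28 with quantile normalization, none of which passed (adjusted p = 0.972, 0.842 and 0.993).

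Th2 cells lacking Stat6 were set against Th2 cells. Genotype and serial series cannot be told apart in this comparison, and the Th2 identity of the knockout cells could not be checked. Whether the Th2 state of the domain needs Stat6 is therefore not settled by it. In cells without Stat6 the domain's mean was 0.27 above that of Th2 cells (SE 0.10, 95% interval 0.03 to 0.51), and this did not pass across all windows (limma adjusted p = 0.332). All 18 bins had a higher mean in the knockout, by 0.08 to 0.42, and in 16 of them both knockout arrays were above both Th2 arrays, as in 56.7% of the other chromosome 11 bins. None of the 18 passed, with 0.0199% of all bins and 0.465% of the other chromosome 11 bins called higher. The size depended on the scaling: the domain's difference was 0.073 with the median per window, 0.063 with scaling by spread and 0.11 with quantile normalization, and 5 of 18 bins had a lower mean in the knockout with scaling and 3 with quantile normalization. The bin with the smallest p, from 97500001 to 98000000, had 0.79 and 0.72 in the knockout and 0.42 and 0.28 in Th2 cells (change 0.40, adjusted p = 0.163). Fitted without the other 2 groups the domain's difference passed (adjusted p = 0.0190) with 8 bins, and 0.896% of all bins and 15.3% of the other chromosome 11 bins were then called higher.

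Against naive cells, parts of the domain were lower in the knockout. The naive, Th1, Th2 and knockout arrays each serve in several of these comparisons, which therefore share arrays. The whole-domain difference was -0.44 (SE 0.10) and did not pass (limma adjusted p = 0.0787), with 0.647% of all windows and 13.3% of those on chromosome 11 called lower. In bins 8 of 18 bins passed, all lower in the knockout, against 1.16% of all bins and 23.3% of the other chromosome 11 bins. The bin from 99000001 to 99500000 had 0.25 and 0.37 in the knockout and 1.19 and 1.27 in naive cells (change -0.92, adjusted p = 0.0221). The bins from 94500001 and from 96000001 followed, with changes of -0.78 (adjusted p = 0.00194) and -0.74 (0.0188). Both knockout arrays were below both naive arrays in 15 of the 18 bins, as in 60.9% of the other chromosome 11 bins. The domain changed by -0.52 without naive replicate 1 and by -0.37 without naive replicate 2. Fewer of its bins passed when any 1 of the 4 arrays was left out. Against Th1 cells the domain's mean was 0.19 lower (limma adjusted p = 0.833), and 0 of 18 bins passed, as did 0% of all bins. Both knockout arrays were below both Th1 arrays in 7 bins and in 31.2% of the other chromosome 11 bins. Without Th1 replicate 1 the change of the domain against Th1 cells was -0.37, and without Th1 replicate 2 it was -0.011.

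**Figure D3:**
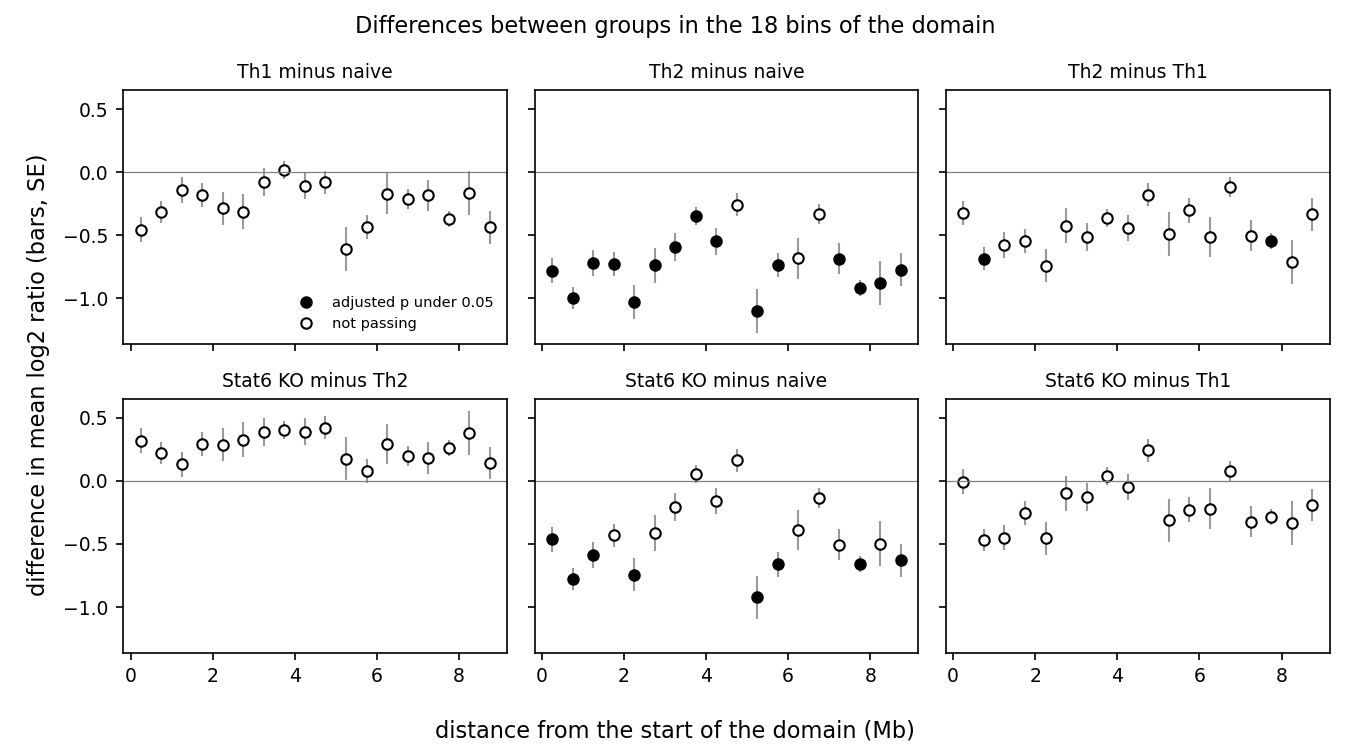
Difference in mean log2 ratio between groups for each of the 18 bins of the domain against the distance from its start in Mb, in the 6 comparisons; bars are the SE from limma and filled points passed at an adjusted p under 0.05. In Th2 minus naive 15 bins were lower, in Stat6 KO minus naive 8, in Th2 minus Th1 2 and in the other comparisons none passed.

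The group means also differed in their profile inside the domain, and not only in height, as a description without a test of the whole profile. Over the 8 arrays the highest bins were those from 96000001 to 96500000 (0.83 ± 0.45), from 94500001 to 95000000 (0.81 ± 0.43) and from 96500001 to 97000000 (0.75 ± 0.33). The lowest were those from 99500001 to 100000000 (0.35 ± 0.32), from 101500001 to 102000000 (0.56 ± 0.37) and from 99000001 to 99500000 (0.57 ± 0.49; SD, n = 8 each). In naive cells the bins ran from 0.70 to 1.35, and the bin from 99000001 had rank 3 with 1.23. In Stat6 KO cells the same bin was the last but one with 0.31, while the bin before it, from 98500001 to 99000000, was the highest with 0.92. In Th2 cells that bin before it was the second highest with 0.49 and the bin from 99000001 stood at 0.13.

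**Figure D4:**
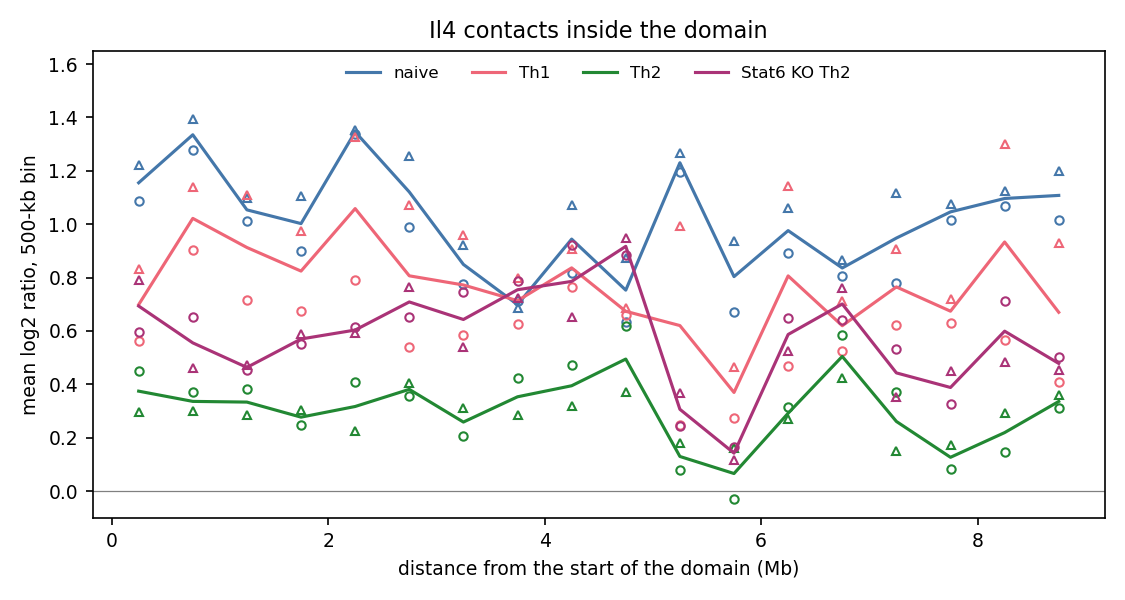
Mean log2 ratio of the Il4 bait in each of the 18 bins of 500 kb against the distance from the start of the domain in Mb; lines are group means, circles replicate 1 and triangles replicate 2. In the bin before 99000001 the means run from 0.49 to 0.92, and in the next bin naive cells rise to 1.23 while Th2 and Stat6 KO cells drop to 0.13 and 0.31.

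The step between these 2 bins was therefore measured in each array, as the value from 99000001 to 99500000 minus that from 98500001 to 99000000. In naive cells it was 0.56 and 0.39. In Th2 cells it was -0.54 and -0.19, in Stat6 KO cells -0.64 and -0.58, and in Th1 cells -0.41 and 0.31. Naive arrays thus stepped up, Th2 and knockout arrays stepped down and the Th1 arrays went opposite ways. The same step was fitted between all 4966 pairs of adjacent bins of the genome. It changed by -1.09 between knockout and naive cells (SE 0.16, limma adjusted p = 0.00430) and by -0.84 between Th2 and naive cells (SE 0.16, adjusted p = 0.0277), and between Th1 and naive cells the change of -0.53 did not pass (adjusted p = 0.505). Steps called in those fits were 0.564% of all for the knockout, 0.624% for Th2 and 0% for Th1 cells. On chromosome 11 they were 11.7%, 12.6% and 0% of 231 steps. This step was chosen after the profile was seen. The Th2 change no longer passed without naive replicate 1 (-0.76, adjusted p = 0.302), naive replicate 2 (-0.93, 0.104) or Th2 replicate 1 (-0.67, 0.345), and passed without Th2 replicate 2 (-1.01, 0.0323). Without naive replicate 1 the knockout change did not pass (-1.0, adjusted p = 0.0673), and without Th1 replicate 2 the Th1 change did (-0.89, 0.00106). Between knockout and Th1 cells the step changed by -0.56 (adjusted p = 0.350), between Th2 and Th1 cells by -0.31 (0.980) and between knockout and Th2 cells by -0.25 (0.906), and none of these 3 passed, with 0.0805%, 0.101% and 0.0201% of all steps called. Without Th1 replicate 1 the first was -0.92 (0.000611) and the second -0.67 (0.00859). With scaling by spread the Th2 change (-1.12, 0.0529) and the knockout change (-1.09, 0.128) against naive cells did not pass, nor did they with trend and robust eBayes (adjusted p = 0.551 and 0.197). With extreme probes left out the Th2 change was -0.37 (0.106) and the knockout change -0.64 (0.00124), and with the median per bin the Th1 change passed (-0.67, 8.7e-06).

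Across the 18 bins the profiles of Th2 and Stat6 KO cells were the most alike of the 6 pairs of groups (r = 0.86 between group means, and 0.63 to 0.80 between single arrays). Naive and Th1 cells followed with 0.57, and the Th1 profile had 0.36 with the knockout and 0.27 with Th2 cells. The Th1 arrays differed in this. Th1 replicate 1 had 0.22 and 0.17 with the naive arrays and 0.58 and 0.37 with the knockout arrays. Th1 replicate 2 had 0.69 and 0.61 with the naive arrays and 0.24 and 0.010 with the knockout arrays. Naive cells had -0.16 with Th2 and -0.23 with knockout cells. Replicates of one group had 0.87 in naive, 0.74 in knockout, 0.64 in Th2 and 0.38 in Th1 cells. These correlations are over bins that share probes and reference DNA and have no test. The knockout mean was above the naive mean in 2 of the 18 bins, those from 97500001 (0.75 against 0.70) and from 98500001 (0.92 against 0.75). Neither difference passed.

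At 100 kb, 89 of the 90 windows of the domain had at least 8 probes. All 89 had a mean above 0 over the 8 arrays, and 74 were above 0 in every array. In 4 of them the Th2 mean was above the naive mean, and in the one from 98900001 to 99000000 both Th2 arrays (0.95 and 0.81) were above both naive arrays (0.31 and 0.61). The highest was that from 94800001 to 94900000, with means of 1.31 in naive, 1.48 in Th1, 0.98 in Th2 and 0.76 in knockout cells. It had 11 probes, and its Th2 level was above that of every 500-kb bin of the domain in Th2 cells. The lowest was that from 99500001 to 99600000, with 0.50 in naive, 0.15 in Th1, -0.030 in Th2 and -0.12 in knockout cells. At this size replicates of a group correlated with r from 0.21 in Th1 to 0.53 in naive cells, so single windows are less certain than bins.

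The same stretch was read by arrays with another bait, Ifng on chromosome 10, as a contact between chromosomes. There the domain had 0.13 and 0.20 in naive, 0.062 and 0.092 in Th1, 0.16 and 0.13 in Th2 and 0.15 and 0.14 in Stat4 KO Th1 cells. In 3T3-L1, a preadipocyte line, it had 0.015 and 0.076. The domain had ranks from 5 to 42 among the 294 windows off chromosome 10 in the 8 T cell arrays, and ranks 279 and 72 in the 3T3-L1 arrays. Th1 replicate 2 of this bait is the array that resembles Il4-bait Th2 replicate 2.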

How the data were processed

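Il4-bait 4C was analysed on 8 arrays in 4 groups of 2, named from titles, and 10 Ifng-bait arrays were read for the same stretch. Per the labels, HindIII-cut and ligated chromatin was recut with Csp6I, amplified from the bait and labelled with Cy5, against Cy3-labelled cut genomic DNA. The protocol names other baits and adherent cells; titles were followed. The deposited values are one ratio per probe on a log scale, taken as log2. Base, software, filters and build are not given in the sources used here. The build mm8 was inferred: 0 of 21 chromosomes had a probe past its end (mm9, 5). A step in which the authors made the values of a pair equal is visible only in the values.

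Arrays were centred on the median off chromosome 11 and averaged in 500-kb bins (20 probes or more) and in 9-Mb windows (100 or more) aligned to the domain, without the bait bin and 1 Mb around it. limma 3.58.1 (R 4.3.3; lmFit, contrasts, eBayes; 2-sided; all 4 groups) was adjusted by Benjamini-Hochberg over all bins or windows at 0.05. The bins named are the at most 3 with the largest change in each direction among those called, or the smallest p. Members and lists were chosen with earlier results of these data known. Fits were tested on simulated data. Figures used Python 3.11.15 and matplotlib 3.10.9, bands circlize 0.4.16. The number of arrays limits the precision. Alternatives were other summaries, scalings, centrings, blocks, bin sizes and arrays left out.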

Additional observations from a re-analysis of the deposited data

Results flagged for a closer look

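The domain's changes under the Il4 and Ifng baits were compared with both in a fit (9-Mb windows, limma). From naive to Th2 cells the domain changed by -0.71 under the Il4 bait and by -0.02 under the Ifng bait, a difference of -0.69 (SE 0.12, adjusted p = 0.00166 over 309 windows). From Th1 to Th2 cells it changed by -0.46 and by 0.07, a difference of -0.53 (adjusted p = 0.0232). From naive to Th1 cells the difference between baits was -0.16 (adjusted p = 0.379). The Il4 bait lies on the chromosome of the domain and the Ifng bait does not. Levels under Ifng were at most 0.20 in any array, so a change as large as -0.71 had little room there. The fit therefore cannot tell whether the domain responds alike under both baits. In the Th1 against Th2 contrast the Ifng Th1 and Il4 Th2 groups hold the 2 arrays that resemble each other. No group had enough arrays for a check of single arrays against the rest of their group.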

How the results depend on the processing

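Direction of the domain's change was kept in all 6 comparisons under every alternative. Its call changed as follows (limma adjusted p in brackets). For Th2 against naive cells it was lost with the median per window (-0.46, 0.161), scaling by spread (-0.68, 0.182), the serial series as a block (-0.71, 0.229) and trend and robust eBayes (-0.71, 0.0611). For Th2 against Th1 it was gained on centring on the rest of chromosome 11 (-0.40, 2.44e-05; 0.00582 with that chromosome alone). For knockout against naive cells it was gained with that centring (-0.27, 0.00121; 0.0315), quantile normalization (-0.54, 0.0426), the compared groups alone (-0.44, 3.41e-07) and the series as a random block (-0.44, 0.0420), and for knockout against Th2 with the compared groups alone (0.27, 0.0190). Chromosome 11 alone and the random block were chosen after seeing the data. That centring shifts all other bins by up to 0.18, so only the values with chromosome 11 alone are comparable. Bins called for Th2 against naive (15 of 18) were 8 with the median, 3 with scaling, 9 with the series block, 5 with trend, 29 of 45 at 200 kb and 9 of 9 at 1000 kb. Over all chromosomes the main fit called 112 bins, the median 57, scaling 49, the series block 65 and trend 61. For Th2 against Th1 (2) the domain's bins called were 0 with the median, quantile normalization, scaling, the series block, trend or extreme probes left out. They were 8 on that centring (9 with the chromosome alone) and 1 at 1000 kb. Over all chromosomes the main fit called 11 bins and that centring 45 (50 with the chromosome alone). For knockout against naive (8) the domain's bins called were 1 with scaling, 3 with trend, 0 without extreme probes, 13 with compared groups alone and 4 at 1000 kb. For knockout against Th2 (0) they were 8 with compared groups alone. For Th1 against naive (0) they were 2 with the median and 5 with quantile normalization. Over all chromosomes compared groups alone called 127 bins for knockout against naive (main fit 70) and 45 for knockout against Th2 (main fit 1). For Th1 against naive the median called 24 and quantile normalization 41 (main fit 6). The bin from 97500001 in Th1 against naive cells turned to -0.045, -0.080, -0.13 and -0.025 with the median, quantile normalization, scaling and extreme probes left out, and with 1 array left out it ranged from -0.071 to 0.10. The step at 99000001 turned to 0.026 with scaling for knockout against Th2, and ranged from -0.67 to 0.049 with 1 array left out for Th2 against Th1.

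Leaving out 1 array gave domain changes from -0.78 to -0.64 (Th2 against naive, 7 to 13 bins), -0.64 to -0.28 (Th2 against Th1, 0 to 15), -0.43 to -0.072 (Th1 against naive, 0 to 10), 0.25 to 0.29 (knockout against Th2, 0), -0.52 to -0.37 (knockout against naive, 1 to 5) and -0.37 to -0.011 (knockout against Th1, 0 to 8). The replicate numbers are shared only as numbers: deviations of same-numbered arrays correlated with r from -0.38 to 0.37 over the 6 pairs of groups. With the replicate block the domain's changes were the same and no call moved (Th2 against naive, adjusted p = 0.0125, 14 bins). No value within a series was possible for the knockout.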

Other observations

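Under the Ifng bait the domain's profile resembled that under Il4. Across the 18 bins the mean of the 10 Ifng arrays and the mean of the 8 Il4 arrays had r = 0.75, with single Ifng T cell arrays from 0.10 to 0.62 against the Il4 mean and the 3T3-L1 arrays at -0.30 and -0.10. The bin from 96000001 was the highest under both baits (0.18 and 0.83). The bin from 99500001, the lowest under Il4 with 0.35, was the second lowest under Ifng with 0.055. Both baits share probes and the kind of reference DNA, and the likeness has no test.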
